A study of Homo sapiens with 36 samples.

Results

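The genes described here are 37 genes of the integrated stress response and of tRNA charging. They are the rows of the deposited expression table whose Entrez Gene identifiers map to 37 listed symbols, and all 37 were found among its 21599 rows. They were followed in THP-1 cells, a human monocytic leukemia line that the phorbol ester PMA turns into adherent, macrophage-like cells. KO cells carry a knockout of IRG1, now called ACOD1, whose enzyme turns cis-aconitate into itaconate, and WT cells do not. The labels do not say whether the KO line is 1 clone. RNA-seq covered 36 libraries in 12 groups of 3. Stimulated KO and stimulated WT cells received LPS and IFN-γ (200 ng/mL of each), KO and WT vehicle cells received vehicle only, and each was collected after 6, 12 and 24 h. Every group, vehicle included, had first been held in 100 nM PMA for 72 h. Nothing in the labels ties a replicate number to a separate culture, so each p-value below is set against the spread of these libraries alone.

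In the integrated stress response, kinases that sense different kinds of stress phosphorylate the translation initiation factor eIF2. Bulk protein synthesis then slows while the mRNA of the transcription factor ATF4 is translated more. ATF4, with partners such as CEBPG, switches on genes for amino acid uptake, amino acid synthesis and some of the cytosolic aminoacyl-tRNA synthetases. These enzymes join each amino acid to its tRNA. Misfolded protein in the endoplasmic reticulum (ER) engages this pathway through the kinase EIF2AK3 and also separate arms, ATF6 and XBP1, which raise chaperones such as HSPA5.

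Values are the deposited log2 values, differences are in log2 units with a standard error (SE) after ±, and levels carry an SD after ± (n = 3). Reads per library are not in the table, so depth is unknown. A call means an adjusted p below 0.05 in a limma fit of 21232 genes in all 36 libraries, and all 37 genes passed its filter on low values. Each SE of a difference and each p-value rests on a spread pooled over all 12 groups, and the groups compared can spread more widely. ACOD1 ran from 7.98 to 10.22 in the stimulated KO libraries, against 9.20 to 12.76 in the stimulated WT libraries, and from 0.00 to 0.33 in KO vehicle libraries, against 0.12 to 0.86 in WT vehicle libraries. The targeted transcript was thus present in stimulated KO cells, and the labels do not say what the knockout changed in it. All 10 macrophage markers listed had a mean at or above 3.32, the log2 of 10, against 3 of the 7 markers of other cell types found in the table, with means of 7.69 (PECAM1), 6.21 (NKG7) and 4.77 (COL1A1), while CD3D was at 0.00 in 5 libraries. Library 2 of the stimulated KO cells at 6 h stood apart from its group (Pearson r of 0.827 and 0.851 across genes), as did library 3 of the stimulated WT cells at 24 h (0.856 and 0.885), while every other pair within a group reached at least 0.919. Fewer cells with a transcript and less transcript per cell cannot be told apart in such bulk RNA.

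ATF4 and ATF6 act by binding promoters, so promoters of the genes are shown first. RefSeq promoters (GRCh38.p14, 250 bases before to 50 after the start) were matched for 33 of the 37 genes by Entrez identifier. Only the first promoter listed for a gene was used, so any other start of the same gene was not searched. The C/EBP-ATF composite element, searched as TGATGNAAN on both strands, was present in 10 of the 33, against 2.0% of the promoters of genes in the table and 3.67% of all 27305 promoters. The 250 bases before the start are given for 4 genes that hold it there, 5′ to 3′ on the strand of the gene, with the match in capitals (in CHAC1 and AARS1 it lies on the opposite strand and reads as the reverse complement).

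ASNS, minus strand, chr7:97872409-97872658: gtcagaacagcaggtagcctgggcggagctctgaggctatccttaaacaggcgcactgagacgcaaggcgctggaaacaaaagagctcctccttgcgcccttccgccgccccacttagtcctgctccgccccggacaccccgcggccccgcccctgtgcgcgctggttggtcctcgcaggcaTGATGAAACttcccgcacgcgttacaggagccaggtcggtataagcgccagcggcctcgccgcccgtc

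CHAC1, plus strand, chr15:40953221-40953470: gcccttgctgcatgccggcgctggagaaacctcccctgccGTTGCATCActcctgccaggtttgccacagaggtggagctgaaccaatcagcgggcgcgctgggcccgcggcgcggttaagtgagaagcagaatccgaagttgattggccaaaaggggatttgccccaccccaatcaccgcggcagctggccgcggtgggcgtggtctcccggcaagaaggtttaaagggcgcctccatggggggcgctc

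AARS1, minus strand, chr16:70289507-70289756: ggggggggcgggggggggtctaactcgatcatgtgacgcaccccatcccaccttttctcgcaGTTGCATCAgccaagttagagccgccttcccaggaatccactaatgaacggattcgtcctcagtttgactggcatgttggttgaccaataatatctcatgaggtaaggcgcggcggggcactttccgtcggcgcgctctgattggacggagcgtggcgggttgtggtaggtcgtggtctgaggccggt

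ATF3, plus strand, chr1:212565157-212565406: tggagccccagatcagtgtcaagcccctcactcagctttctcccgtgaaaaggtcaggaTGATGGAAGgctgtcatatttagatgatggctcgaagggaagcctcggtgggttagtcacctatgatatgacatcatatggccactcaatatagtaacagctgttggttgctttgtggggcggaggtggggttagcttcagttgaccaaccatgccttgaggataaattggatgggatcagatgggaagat

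The match began 68 bases before the start in ASNS (TGATGAAAC), 210 before in CHAC1 (TGATGCAAC), 188 before in AARS1 (TGATGCAAC) and 191 before in ATF3 (TGATGGAAG). Of the other genes, HERPUD1 held TGATGCAAC 177 bases before the start and MARS1 held it 5 bases before. In NARS1 (TGATGCAAC), TARS1 (TGATGCAAT), SLC3A2 (TGATGTAAG) and SLC7A1 (TGATGAAAC) the match lay within the first 50 bases after the start. A second element, CCAAT and CCACG separated by 9 bases, is the ER stress response element to which ATF6 binds. It was found in 2 of the 33 promoters, HSPA5 and XBP1, against 0.107% of the promoters of genes in the table, and the 2 are printed so that they can be set beside the ones above.

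HSPA5, minus strand, chr9:125241344-125241593: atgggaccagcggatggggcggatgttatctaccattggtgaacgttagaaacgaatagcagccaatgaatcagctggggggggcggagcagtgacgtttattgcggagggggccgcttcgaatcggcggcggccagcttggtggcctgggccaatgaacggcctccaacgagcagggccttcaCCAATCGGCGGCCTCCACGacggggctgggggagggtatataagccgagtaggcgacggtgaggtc

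XBP1, minus strand, chr22:28800570-28800819: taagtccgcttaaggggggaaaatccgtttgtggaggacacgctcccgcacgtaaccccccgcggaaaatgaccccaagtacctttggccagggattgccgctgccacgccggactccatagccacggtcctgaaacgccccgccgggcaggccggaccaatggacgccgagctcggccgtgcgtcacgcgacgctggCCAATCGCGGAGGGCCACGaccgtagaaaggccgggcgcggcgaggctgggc

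A match describes the letters of such a window and is not a shown binding site.

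Most of the 37 genes stood near or below their vehicle level at 6 and 12 h and above it at 24 h. At 6 h, 5 genes were higher and 9 lower in stimulated KO cells than in KO vehicle cells, where 16.2% of all genes tested were called up and 22.5% down. In WT cells 4 were higher and 8 lower (15.1% and 20.9% of all genes). At 12 h the counts were 5 and 4 in KO cells (15.5% and 19.5%) and 7 and 5 in WT cells (16.8% and 21.7%). In the fit of all 36 libraries, the shares of the 37 called at 6 and 12 h were thus near or below those of all genes. In both genotypes ATF3, ATF5, PPP1R15A and XBP1 were higher at 6 h, while AARS1, NARS1, CBS, SLC1A5, VLDLR and EIF2AK4 were lower, and ATF4 and DDIT3 joined the higher genes at 12 h. At 24 h, 27 of the 37 were higher and 1 lower in KO cells (17.3% and 21.6% of all genes), and 19 were higher and 4 lower in WT cells (20.2% and 26.1%). By role, the genes higher at 24 h were 6 of 7 transcription factors and regulators in each genotype, 4 of 5 stress effectors in each, and 4 of 6 transporters in KO and 3 in WT cells. With them were 4 of 4 amino acid enzymes in KO and 2 in WT cells, and 6 of 8 synthetases in KO and 3 in WT cells. Of the 4 genes of the ER arm, 2 were higher in KO cells and 0 in WT cells. Of EIF2AK3, EIF2AK4 and PPP1R15A, 1 was higher in each genotype. The lower genes were EIF2AK4 in KO cells, and EIF2AK3, EIF2AK4, HSPA5 and NARS1 in WT cells. In KO cells the ER arm count was 1 without stimulated library 2 or vehicle library 3. Single libraries moved these counts. Without stimulated library 2 of the KO cells they were 1 enzyme, as GPT2 (1.08), CTH and CBS lost their calls, and 2 transporters. Without stimulated library 3 of the WT cells there were 6 synthetases, with AARS1 (1.05), SARS1 (0.73) and YARS1 (1.09) added, and without stimulated library 2 of the WT cells 1 synthetase and 1 enzyme. Vehicle library 1 left out gave 2 enzymes in KO cells, and vehicle library 2 left out gave 1 in WT cells. A stricter filter on low values tested fewer of the genes. Under it the counts were 2 stress effectors in each genotype, and 1 enzyme in KO and 0 in WT cells. AARS1, GARS1, YARS1, CBS, CTH and SLC1A5 went below vehicle at 6 h and above it at 24 h in KO cells, both called, as CEBPG did in WT cells. Single libraries ended some of these calls. At 6 h GARS1 lost its call without stimulated library 2 (-0.72) or vehicle library 3 (-0.83). YARS1 lost its call without any library compared except stimulated library 2 (-0.80 to -0.88), and CTH with a pseudocount of 5 (-0.79, against -1.95). At 24 h CBS lost its call without stimulated library 2 (0.96), and CTH without stimulated library 1 (1.47) or 2 (0.70) or vehicle library 1 (1.21) or 2 (1.33). CEBPG in WT cells lost its call without any library compared except stimulated library 3 (0.43 to 0.81).

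Same-numbered libraries varied together in 5 of these 6 comparisons, and there the replicate number as a block added calls and ended none. In KO cells it added the lower TRIB3, SLC3A2 (-0.70) and EPRS1 (-0.90) at 6 h, and at 12 h the lower CBS (-0.93) and NARS1 (-0.60) and the higher SLC7A11 (1.25). In WT cells it added the lower STC2 (-1.51), SARS1 (-0.63) and YARS1 (-0.59) and the higher SLC7A11 (1.40) at 6 h. At 12 h it added SLC7A5 (1.27) and YARS1 (-0.77), and at 24 h YARS1 (0.68). For the response of WT cells at 24 h against that at 6 h it added VLDLR (2.31), SARS1 (0.94) and YARS1 (1.28).

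The median response of the 37 was -0.39, -0.13 and 1.50 at 6, 12 and 24 h in KO cells and -0.50, -0.29 and 0.85 in WT cells, against -0.20, -0.12 and -0.08, and -0.17, -0.18 and -0.11, over all genes. The KO count at 24 h was 17, all higher, without library 2 of the stimulated KO cells. It was 28 without the 2 libraries that stood apart, and the WT count was then 28 in place of 23. Limited to the groups compared, the fit called 17 genes in KO cells at 12 h and 15 in WT cells at 24 h. Among the 17 were 6 synthetases, all lower than vehicle, in place of 1. Shares of all genes are not given for fits limited to the groups compared or with libraries left out. Such counts thus cannot be set against all genes.

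**Figure D1:**
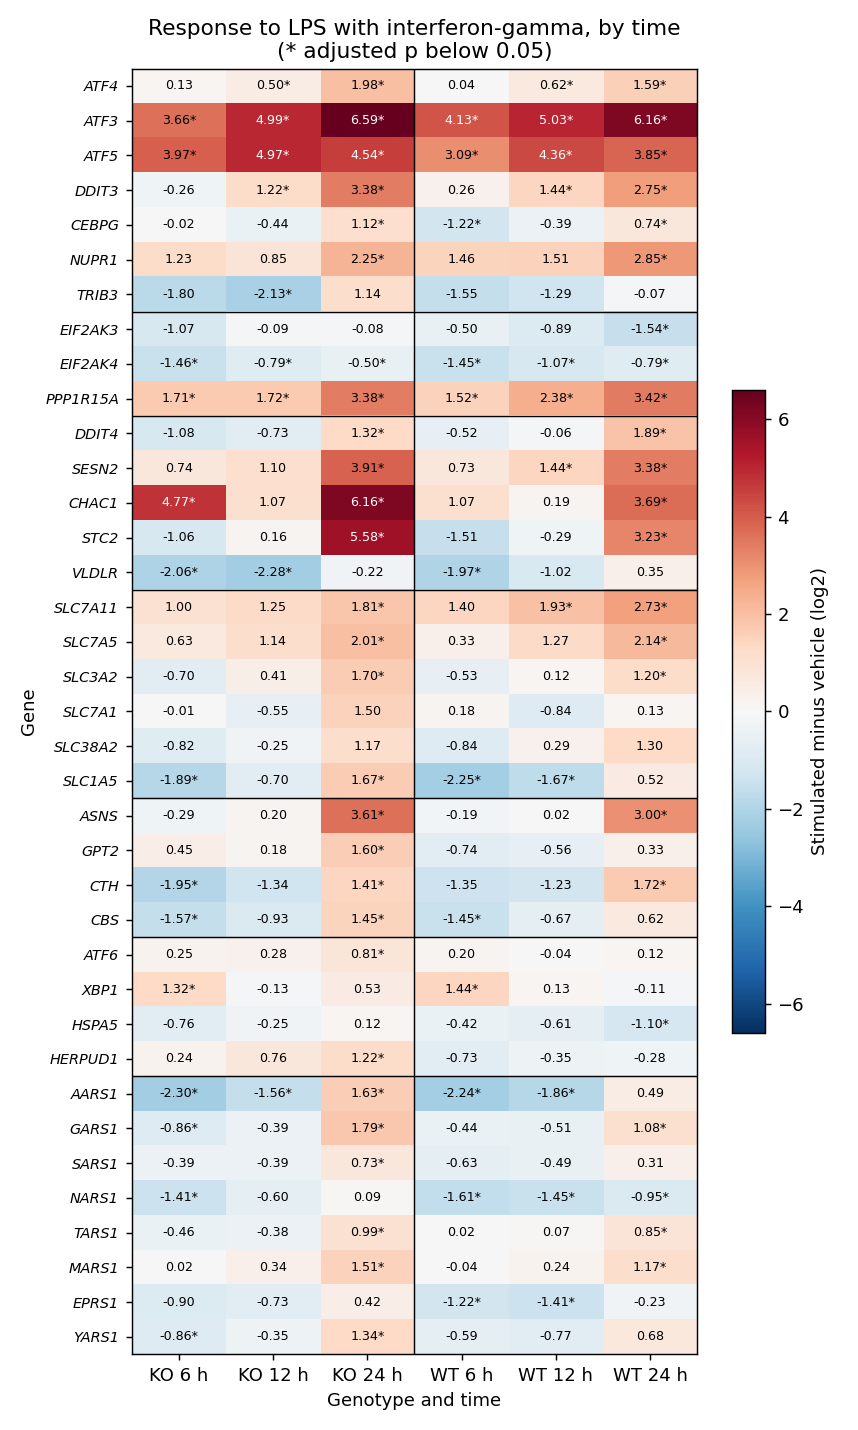
Response of each of the 37 genes to LPS and IFN-γ, as the log2 difference of stimulated minus vehicle cells (colour and number; * marks an adjusted p below 0.05), by genotype and time (columns) and gene, grouped by role (rows). The columns for 24 h hold 27 genes called higher in KO cells and 19 in WT cells, against 5 and 4 in the columns for 6 h.

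The rise between 6 and 24 h was tested within stimulated cells. In KO cells 26 of the 37 genes were higher at 24 h than at 6 h and 1 was lower (14.5% and 13.0% of all genes). In WT cells 23 were higher and 1 lower (10.8% and 12.0%). The median difference was 1.68 in KO and 1.41 in WT cells, against 0.07 and 0.02 over all genes. In vehicle cells ATF3, which fell, was the 1 gene called in KO cells (0.834% of all genes; 2 genes with the replicate number as a block), and none of the 37 was called in WT cells by limma (0.0895% of all genes; 2 of the 37 had an unadjusted p below 0.05). The block added PPP1R15A (-1.01). The count of 1 in KO vehicle cells became 2 without library 1 at 6 h and 0 without library 2 at 6 h, where ATF3 lost its call (-1.46). Taking the response at 24 h against the response at 6 h, 19 genes rose and none fell in KO cells (3.35% and 3.41% of all genes), and 16 rose and 1 fell in WT cells (4.38% and 5.26%). The 1 that fell was XBP1, and it lost its call without each of 10 of the 12 libraries compared (-1.09 to -1.67), without the mean-variance trend, in the fit limited to the groups compared and without the 2 libraries that stood apart (-1.09), so that the count of 1 became 0. Limited to the groups compared, the fit called 12 in KO and 10 in WT cells.

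Markers of macrophages moved over the same interval in stimulated cells, where 3 of 10 rose (CD14, CSF1R and SPI1) and 2 fell (ITGAM and MSR1) in KO cells, and 3 rose (CD14, FCER1G and SPI1) and 1 fell (ITGAM) in WT cells. The log2 of their summed level ran from 13.27 to 13.52 at 24 h and from 12.62 to 13.59 at 6 h in KO cells, and from 13.95 to 14.45 and from 13.49 to 13.63 in WT cells. ITGAM, an integrin chain, read 7.25, 6.86 and 6.92 at 24 h and 9.38, 8.36 and 9.17 at 6 h in KO cells. Of the markers of other cell types, CD3D and COL1A1 fell in WT cells. The part of these shifts in the rise of the 37 genes was not tested.

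The genes called higher at 24 h than at 6 h in stimulated cells of both genotypes numbered 22. They were ATF4, ATF3, DDIT3, CEBPG and TRIB3 among the regulators, the kinase EIF2AK4, and DDIT4, SESN2, CHAC1, STC2 and VLDLR. With them came the transporters SLC3A2 and SLC1A5, the enzymes ASNS, CTH and CBS, and the synthetases AARS1, GARS1, SARS1, TARS1, MARS1 and YARS1. ATF6, EPRS1, NARS1 and SLC38A2 were called in KO cells and not in WT cells, PPP1R15A in WT cells and not in KO cells, and XBP1 was lower in both. The rise came late. The mean at 12 h lay nearer to the 6 h mean than to the 24 h mean for most genes that rose. This held for 24 of the 26 in KO cells and for 22 of the 23 in WT cells. Among all 37 genes, called or not, it held for 28 in KO and 30 in WT cells. The same count was not made over all genes in the table. Whether a late rise is particular to the 37 genes was thus not tested. Without the 2 libraries that stood apart, 24 rose in KO cells and 28 in WT cells. With only the groups compared in the fit, 17 genes were called in KO cells and 15 in WT cells. The KO calls lost were TRIB3, EIF2AK4, DDIT4, CHAC1, VLDLR, SLC3A2, SLC38A2, ATF6, SARS1 and EPRS1. The WT calls lost were ATF3, TRIB3, EIF2AK4, SESN2, VLDLR, GARS1, SARS1, TARS1 and YARS1.

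**Figure D2:**
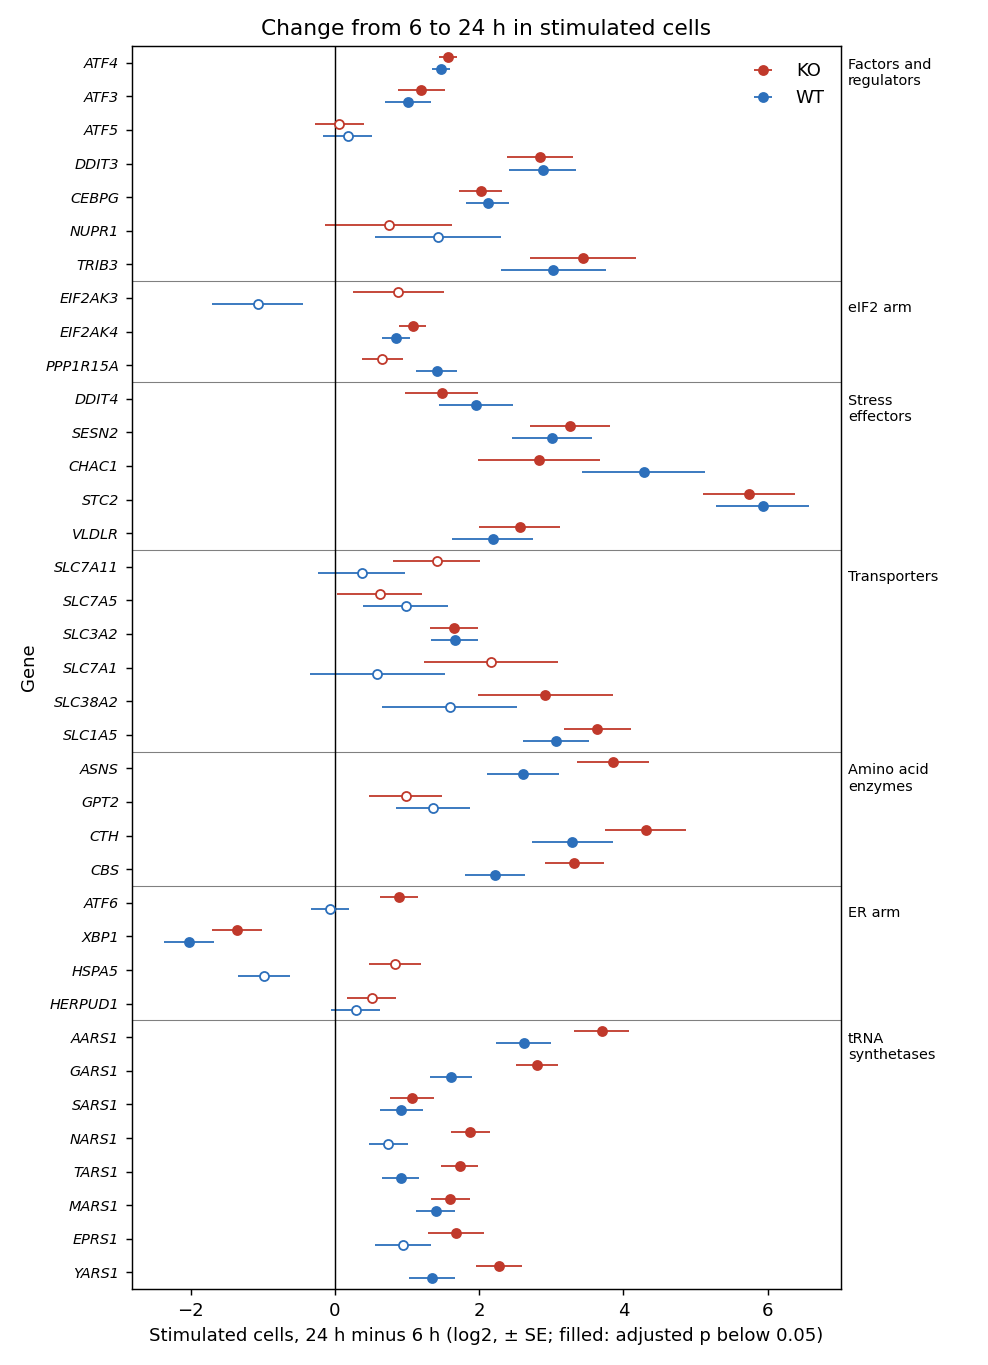
Log2 difference between 24 and 6 h in stimulated cells for each of the 37 genes (points, with SE as bars), KO above WT in each row, grouped by role; filled points have an adjusted p below 0.05. In KO cells 26 filled points lie right of 0 and in WT cells 23, and XBP1 lies left of 0 in both.

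Among the transcription factors and regulators, 5 of 7 rose between 6 and 24 h in KO cells and 5 of 7 in WT cells, and none fell. ATF4 is the central factor of the pathway. ATF4 read 9.88, 9.86 and 9.96 (6 h), 10.08, 10.21 and 10.04 (12 h), and 11.45, 11.56 and 11.41 (24 h) in stimulated KO cells. WT cells read 9.78, 9.99 and 9.96 (6 h), 10.32, 10.68 and 10.23 (12 h), and 11.32, 11.55 and 11.29 (24 h). Vehicle libraries ran from 9.39 to 9.85 in KO and from 9.69 to 10.02 in WT cells. All 6 stimulated values at 24 h lay above every other ATF4 value, and the 6 h values of WT cells overlapped those of vehicle. From 6 to 24 h ATF4 rose by 1.57 ± 0.13 (adjusted p = 3.73e-09) in KO cells, a 2.97-fold difference, and by 1.47 ± 0.13 (adjusted p = 1.45e-08) in WT cells. Against vehicle it was higher by 0.50 at 12 h and 1.98 at 24 h in KO cells, and by 0.62 and 1.59 in WT cells. ATF4 is mainly regulated at translation, which RNA levels do not measure. Rows of 4 ATF4 pseudogenes (ATF4P1 to ATF4P4) also carried values, the highest 9.58 in ATF4P3, and how reads shared between such copies were counted is not given.

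DDIT3, also known as CHOP, is a factor that ATF4 induces and that is linked to cell death under prolonged stress. DDIT3 read 4.32, 6.09 and 5.27 (6 h), 5.48, 6.79 and 6.02 (12 h), and 7.32, 9.16 and 7.73 (24 h) in stimulated KO cells. WT libraries gave 5.64, 5.80 and 6.26 (6 h), 6.66, 7.01 and 7.24 (12 h), and 8.51, 8.93 and 8.91 (24 h). The 24 h values of both genotypes cleared all of their 6 h values, and library 2 was the highest of the KO libraries at each time. The rise from 6 to 24 h was 2.84 ± 0.46 (adjusted p = 5.99e-05) in KO cells and 2.88 ± 0.46 (adjusted p = 5.27e-05) in WT cells. At 12 h DDIT3 exceeded vehicle by 1.22 ± 0.46 in KO and 1.44 ± 0.46 in WT cells. The KO call was lost without each library compared except stimulated library 1 (0.88 to 1.26), and the WT call without vehicle library 1 (1.26) or 2 (1.23) or stimulated library 3 (1.31).

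TRIB3, a pseudokinase that ATF4 and DDIT3 induce and that restrains them, behaved differently against vehicle. TRIB3 read 3.98, 4.39 and 2.95 (6 h), 3.17, 3.72 and 3.50 (12 h), and 6.76, 9.39 and 5.50 (24 h) in stimulated KO cells. WT libraries gave 4.05, 4.38 and 4.61 (6 h), 4.48, 6.15 and 4.46 (12 h), and 7.14, 9.44 and 5.56 (24 h). Vehicle values of TRIB3 ran from 4.96 to 6.32 in KO and from 5.41 to 7.88 in WT cells. TRIB3 thus lay below vehicle at 6 h in both genotypes, although the difference was not called (-1.80 ± 0.73 in KO and -1.55 ± 0.73 in WT cells; called in KO cells with the replicate number as a block, adjusted p = 0.0345). At 12 h TRIB3 was lower than vehicle in KO cells (-2.13 ± 0.73, adjusted p = 0.0236), a call lost without stimulated library 1 (-1.98) or 3 (-2.15) or vehicle library 2 (-2.06) or 3 (-2.01). Its 24 h values straddled those of vehicle, with library 2 high and library 3 low. It rose from 6 to 24 h by 3.44 ± 0.73 (adjusted p = 9.58e-04) in KO and 3.03 ± 0.73 (adjusted p = 0.0033) in WT cells, and by 2.00 in WT cells without library 2 at 24 h. Against vehicle at 24 h TRIB3 was not called (1.14 ± 0.73 in KO and -0.07 ± 0.73 in WT cells), and it gained a call in KO cells without library 3 of the stimulated cells (2.00).

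**Figure D3:**
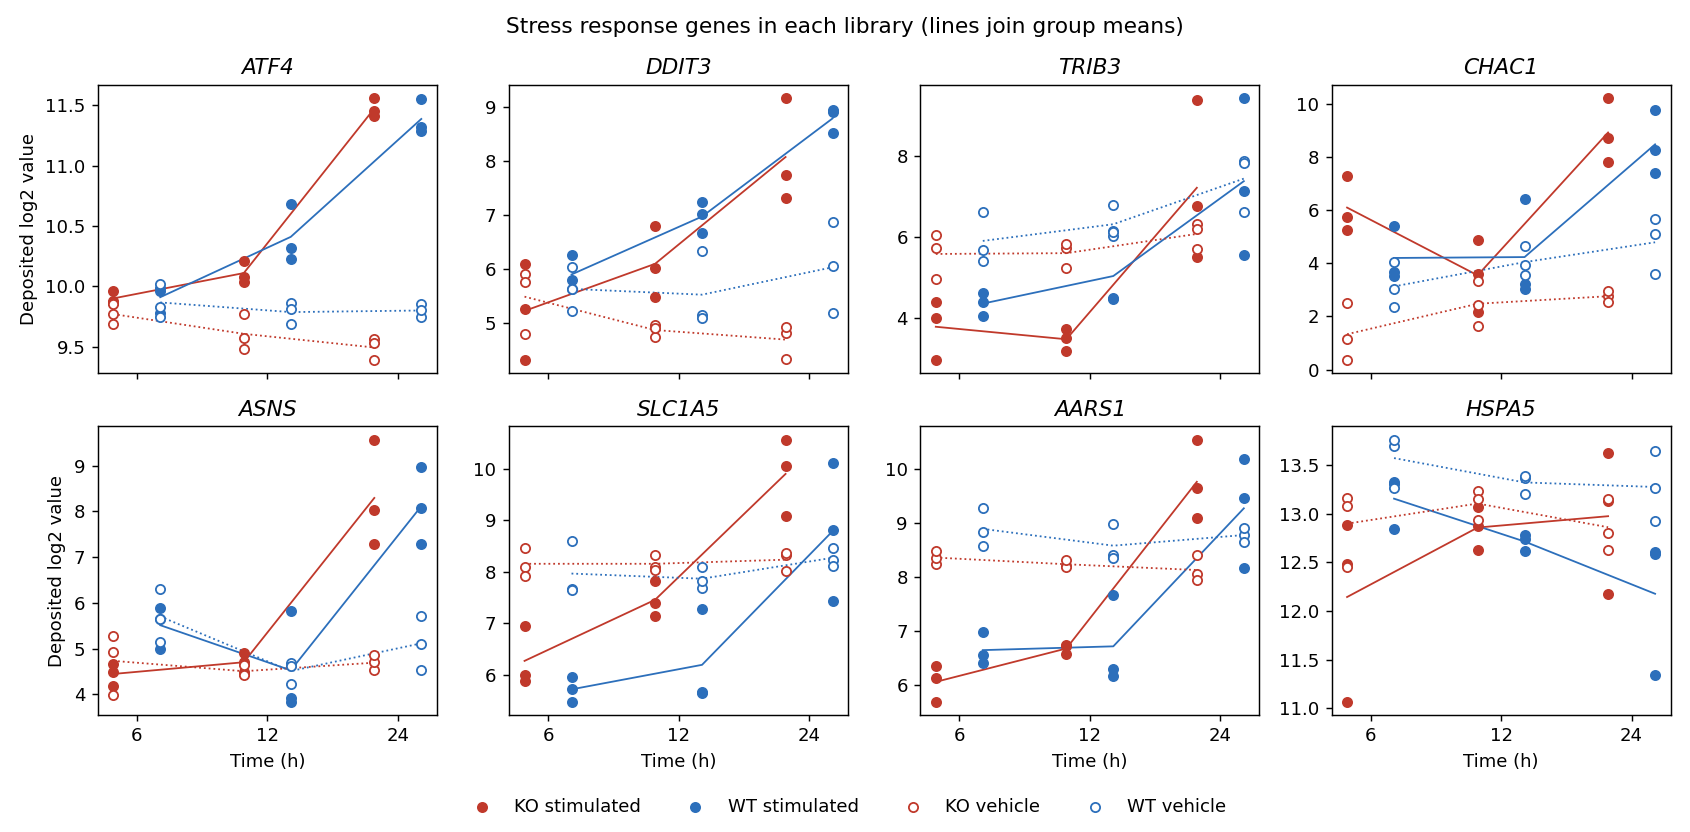
Deposited log2 value in each library (points) by time for 8 of the genes, in stimulated (filled) and vehicle cells (open), KO left of WT at each time; lines join group means. ATF4, DDIT3 and ASNS stand above vehicle at 24 h in both genotypes, TRIB3 and AARS1 dip below vehicle at 6 h, and HSPA5 lies near its vehicle level or below it.

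ATF3, a factor induced by stress and by Toll-like receptor signalling that restrains cytokine genes, had the largest response of the 37 at 24 h. ATF3 read 8.58, 8.28 and 8.39 (6 h), 9.01, 8.42 and 8.96 (12 h), and 9.85, 9.21 and 9.77 (24 h) in stimulated KO cells. WT libraries gave 8.55, 8.79 and 8.24 (6 h), 9.10, 8.54 and 9.11 (12 h), and 9.87, 9.65 and 9.10 (24 h). Vehicle values of ATF3 ran from 2.80 to 5.31 in KO and from 3.13 to 4.90 in WT cells. Every stimulated value exceeded every vehicle value from 6 h on, unlike ATF4. ATF3 was higher than in vehicle cells by 3.66, 4.99 and 6.59 at 6, 12 and 24 h in KO cells and by 4.13, 5.03 and 6.16 in WT cells. It rose from 6 to 24 h by 1.20 ± 0.32 (adjusted p = 0.00592) in stimulated KO cells and by 1.01 ± 0.32 (adjusted p = 0.0206) in stimulated WT cells. The WT call was lost without library 1 (0.85) or 2 (0.95) at 24 h or library 3 at 6 h (0.86). In vehicle cells ATF3 differed between 24 and 6 h by -1.73 ± 0.32 in KO and -1.02 ± 0.32 in WT cells, and the growth of its response holds both differences.

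ATF5, a factor of the mitochondrial arm of the stress response, was also high from the first time. It exceeded vehicle by 3.97, 4.97 and 4.54 in KO cells and by 3.09, 4.36 and 3.85 in WT cells, all called, and did not differ between 24 and 6 h beyond its spread in stimulated KO (0.06 ± 0.34, adjusted p = 0.919) or WT cells (0.18 ± 0.34, adjusted p = 0.746). CEBPG, the partner with which ATF4 forms dimers, averaged 7.62 ± 0.79 at 24 h and 5.60 ± 0.24 at 6 h in stimulated KO cells. Its rise was 2.02 ± 0.30 (adjusted p = 2.19e-05) there and 2.12 ± 0.30 (adjusted p = 1.24e-05) in WT cells. NUPR1, a stress-induced chromatin protein, spread widely. NUPR1 read 8.84, 10.38 and 9.29 at 24 h in stimulated KO cells, against 12.77, 10.72 and 12.92 in stimulated WT cells. Library 2 was the highest of the KO and the lowest of the WT libraries there. NUPR1 exceeded vehicle at 24 h by 2.25 ± 0.88 (adjusted p = 0.0423) in KO and 2.85 ± 0.88 (adjusted p = 0.00889) in WT cells, and its 24 h and 6 h values overlapped in both genotypes. The KO call was lost without vehicle library 1 (1.99) or 2 (2.20) or stimulated library 2 (1.81) or 3 (2.35), and the WT call without vehicle library 2 (2.11).

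Of the 3 genes that set eIF2 phosphorylation, none fell between 6 and 24 h; 1 rose in KO cells (2 without library 1 at 24 h) and 2 in WT cells. EIF2AK4, or GCN2, is the kinase that senses uncharged tRNA. EIF2AK4 read 6.68, 6.08 and 6.50 (6 h), 7.41, 6.98 and 7.38 (12 h), and 7.66, 7.20 and 7.66 (24 h) in stimulated KO cells. WT libraries gave 6.16, 6.24 and 5.67 (6 h), 6.57, 6.86 and 6.55 (12 h), and 6.85, 6.80 and 6.97 (24 h). Vehicle values of EIF2AK4 ran from 7.59 to 8.16 in KO and from 7.32 to 7.86 in WT cells. The stimulated libraries were lowest at 6 h and, at 24 h, still below all 3 vehicle libraries of the same genotype and time. EIF2AK4 fell against vehicle at all 3 times, with called differences of -1.46, -0.79 and -0.50 in KO and -1.45, -1.07 and -0.79 in WT cells. It rose from 6 to 24 h by 1.08 ± 0.19 (adjusted p = 1.55e-04) in KO and 0.85 ± 0.19 (adjusted p = 0.00199) in WT cells. The KO call at 24 h was lost without vehicle library 1 (-0.43) or 3 (-0.48) or stimulated library 2 (-0.34).

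PPP1R15A, or GADD34, is the phosphatase subunit that reverses eIF2 phosphorylation. PPP1R15A read 11.30, 11.59 and 11.63 (6 h), 10.82, 11.41 and 11.18 (12 h), and 11.54, 13.01 and 11.95 (24 h) in stimulated KO cells. WT libraries gave 11.33, 11.00 and 11.13 (6 h), 11.61, 11.53 and 11.85 (12 h), and 12.44, 12.78 and 12.48 (24 h). All stimulated values exceeded the vehicle values, which ran from 8.24 to 10.24 in KO and from 9.01 to 9.74 in WT cells. Its response was called at each time and measured 1.71, 1.72 and 3.38 in KO and 1.52, 2.38 and 3.42 in WT cells. Between 6 and 24 h PPP1R15A rose in stimulated WT cells (1.41 ± 0.28, adjusted p = 5.62e-04), whose values did not overlap. In KO cells they overlapped and the difference was not called (0.66 ± 0.28, adjusted p = 0.0801), but it was called without library 1 at 24 h (0.98). EIF2AK3, or PERK, the kinase of the ER membrane, read 5.95, 2.11 and 6.05 in stimulated KO cells at 6 h, where the low value belongs to the library that stood apart. The difference between 24 and 6 h was not called in KO (0.88 ± 0.63) or WT cells (-1.07 ± 0.63). At 24 h EIF2AK3 was lower than vehicle in WT cells (-1.54 ± 0.63, adjusted p = 0.0474), a call lost without each of 5 of the 6 libraries compared, among them -1.02 without stimulated library 3 and -1.24 without vehicle library 1.

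All 5 stress effectors rose between 6 and 24 h in both genotypes, and 3 of 5 did in KO cells without library 2 at 24 h or library 3 at 6 h. Under a stricter filter on low values, which tested fewer genes, 3 were called higher in each genotype. STC2, a secreted glycoprotein that protects cells under ER stress, had the largest rise of the 37 in the deposited values. STC2 read 3.13, 3.11 and 1.77 (6 h), 2.55, 3.21 and 3.12 (12 h), and 8.57, 9.48 and 7.19 (24 h) in stimulated KO cells. WT libraries gave 1.42, 2.43 and 3.01 (6 h), 3.67, 4.47 and 2.39 (12 h), and 8.66, 8.37 and 7.61 (24 h). Vehicle values of STC2 ran from 2.06 to 4.81 in KO and from 3.38 to 5.69 in WT cells. STC2 was within or below the vehicle range at 6 and 12 h, and all 6 stimulated values at 24 h exceeded every other value. Its rise from 6 to 24 h was 5.74 ± 0.64 (adjusted p = 2.82e-07) in KO and 5.93 ± 0.64 (adjusted p = 2.16e-07) in WT cells. The stimulated 6 h values of STC2 were low (1.42 to 3.13). The size of its rise, and with it the rank, thus depends on the unstated offset under the logarithm. CHAC1, which degrades glutathione, took a different path. CHAC1 read 5.74, 7.29 and 5.26 (6 h), 2.16, 4.89 and 3.59 (12 h), and 8.72, 10.22 and 7.83 (24 h) in stimulated KO cells. WT libraries gave 3.67, 5.41 and 3.52 (6 h), 3.23, 6.42 and 3.05 (12 h), and 8.26, 9.78 and 7.39 (24 h). Vehicle values of CHAC1 ran from 0.36 to 3.34 in KO and from 2.34 to 5.65 in WT cells. In stimulated KO cells it was high at 6 h, low at 12 h and highest at 24 h, with no overlap between neighbouring times. Against vehicle it was higher by 4.77 ± 0.85 (adjusted p = 5.00e-05) at 6 h in KO cells and not called in WT cells (1.07 ± 0.85). The KO vehicle values were low, so the size of 4.77 depends on that offset too. The 2 responses at 6 h differed by 3.70 ± 1.20, which did not pass adjustment over all genes (adjusted p = 0.233). From 6 to 24 h CHAC1 rose by 2.83 ± 0.85 (adjusted p = 0.0138) in KO and 4.28 ± 0.85 (adjusted p = 5.22e-04) in WT cells. The KO call was lost without library 2 at 24 h (2.18) or library 3 at 6 h (2.41).

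SESN2, a sensor that restrains the growth kinase mTORC1 when leucine is short, averaged 9.14 ± 1.24 at 24 h and 5.88 ± 0.25 at 6 h in stimulated KO cells, a rise of 3.26 ± 0.56 (adjusted p = 9.73e-05). In stimulated WT cells it averaged 9.15 ± 1.54 and 6.14 ± 0.34, a rise of 3.01 ± 0.56 (adjusted p = 2.51e-04). The WT call of SESN2 was lost in the limma fit of only the groups compared (adjusted p = 0.052). The stress-induced inhibitor of mTORC1, DDIT4, rose by 1.48 ± 0.51 (adjusted p = 0.0292) in KO and 1.96 ± 0.51 (adjusted p = 0.00582) in WT cells. Its KO call was lost without library 1 (1.54) or 2 (0.93) at 24 h or library 2 (1.35) or 3 (1.52) at 6 h. VLDLR, a lipoprotein receptor, differed from vehicle at 6 h by -2.06 in KO and -1.97 in WT cells, both called, and was near vehicle at 24 h (-0.22 ± 0.56 and 0.35 ± 0.56, neither called). Its rise from 6 to 24 h was 2.56 ± 0.56 (adjusted p = 0.00122) in KO and 2.19 ± 0.56 (adjusted p = 0.00522) in WT cells, where the groups overlapped and the call was lost without library 2 at 24 h (1.56).

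The 6 amino acid transporters were divided, with 3 rising between 6 and 24 h in KO cells and 2 in WT cells, or 4 in WT cells without the 2 libraries that stood apart. SLC1A5, the glutamine carrier, fell below vehicle first. SLC1A5 read 5.99, 6.95 and 5.87 (6 h), 7.83, 7.39 and 7.15 (12 h), and 10.06, 10.57 and 9.08 (24 h) in stimulated KO cells. WT libraries gave 5.48, 5.95 and 5.72 (6 h), 5.64, 7.27 and 5.67 (12 h), and 8.82, 10.12 and 7.43 (24 h). Vehicle values of SLC1A5 ran from 7.92 to 8.46 in KO and from 7.64 to 8.60 in WT cells. At 6 h all stimulated values were below all vehicle values of both genotypes. At 24 h all KO values were above them, and WT values overlapped them. SLC1A5 differed from vehicle by -1.89 ± 0.46 (adjusted p = 0.0017) at 6 h and 1.67 ± 0.46 (adjusted p = 0.00485) at 24 h in KO cells. In WT cells it differed by -2.25 ± 0.46 (adjusted p = 3.20e-04) at 6 h and was not called at 24 h (0.52 ± 0.46), although it gained a call there without stimulated library 3 (1.20). From 6 to 24 h it rose by 3.64 ± 0.46 (adjusted p = 1.87e-06) in KO and 3.07 ± 0.46 (adjusted p = 2.15e-05) in WT cells.

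SLC38A2 carries small neutral amino acids and is a known ATF4 target. SLC38A2 read 8.85, 3.39 and 8.01 (6 h), 8.06, 8.75 and 7.73 (12 h), and 9.67, 10.48 and 8.85 (24 h) in stimulated KO cells. WT libraries gave 8.36, 8.39 and 6.48 (6 h), 8.57, 9.43 and 7.50 (12 h), and 10.07, 10.68 and 7.24 (24 h). Library 2 of the KO cells at 6 h was the lowest by far, and the other KO values at 6 h reached 8.85, where the 24 h values began. SLC38A2 rose from 6 to 24 h in KO cells (2.92 ± 0.93, adjusted p = 0.0198) and was not called in WT cells (1.59 ± 0.93). The KO call rested on single libraries, being lost without library 2 at 6 h (1.24) or library 2 at 24 h (2.51). With both libraries that stood apart left out, the WT difference was called (2.63) and the KO difference was not (1.24).

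The heavy chain that SLC7A5 and SLC7A11 need to reach the membrane, SLC3A2, rose from 6 to 24 h by 1.65 ± 0.33 (adjusted p = 4.65e-04) in KO and 1.66 ± 0.33 (adjusted p = 4.86e-04) in WT cells. Its light chains were not called over this interval. SLC7A11, the cystine importer, differed by 1.41 ± 0.60 in KO and 0.37 ± 0.60 in WT cells, and SLC7A5, the leucine carrier, by 0.62 ± 0.59 and 0.98 ± 0.59. Against vehicle at 24 h both were higher, SLC7A11 by 1.81 ± 0.60 (adjusted p = 0.0168) in KO and 2.73 ± 0.60 (adjusted p = 4.49e-04) in WT cells, and SLC7A5 by 2.01 ± 0.59 (adjusted p = 0.00767) and 2.14 ± 0.59 (adjusted p = 0.00385). The KO call of SLC7A11 was lost without stimulated library 1 (1.56) or 2 (1.69) or vehicle library 3 (1.56). SLC7A5 lost its call without stimulated library 2, in KO (1.31) and in WT cells (1.27), and over 6 to 24 h in WT cells it gained one without library 3 at 24 h (1.78). The pseudogene SLC7A5P2 had values up to 10.08, so reads of SLC7A5 may be divided between copies in a way that is not given. The arginine carrier SLC7A1 was not called over this interval in KO (2.16 ± 0.93) or WT cells (0.59 ± 0.93), and gained a call in KO cells without library 3 at 24 h (2.85).

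Of the 4 amino acid enzymes, ASNS, CTH and CBS rose between 6 and 24 h in both genotypes. With a stricter filter on low values, which tested fewer genes, 1 enzyme was called higher in each genotype. ASNS makes asparagine from aspartate. ASNS read 4.19, 4.48 and 4.66 (6 h), 4.48, 4.91 and 4.71 (12 h), and 8.03, 9.57 and 7.28 (24 h) in stimulated KO cells. WT libraries gave 5.88, 5.00 and 5.65 (6 h), 3.84, 5.81 and 3.92 (12 h), and 8.08, 8.98 and 7.28 (24 h). Vehicle values of ASNS ran from 3.98 to 5.28 in KO and from 4.23 to 6.31 in WT cells. The 6 and 12 h values overlapped those of vehicle, and every stimulated value at 24 h lay above them. ASNS rose from 6 to 24 h by 3.85 ± 0.50 (adjusted p = 2.64e-06) in KO and 2.61 ± 0.50 (adjusted p = 3.81e-04) in WT cells, and at 24 h it exceeded vehicle by 3.61 ± 0.50 (adjusted p = 1.35e-06) and 3.00 ± 0.50 (adjusted p = 1.71e-05).

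CTH, which makes cysteine from cystathionine, fell first. CTH read 0.19, 0.97 and 1.17 (6 h), 1.88, 1.70 and 2.21 (12 h), and 4.95, 6.49 and 3.82 (24 h) in stimulated KO cells. WT libraries gave 2.18, 1.79 and 1.77 (6 h), 1.55, 2.38 and 2.28 (12 h), and 5.49, 6.53 and 3.58 (24 h). Vehicle values of CTH ran from 2.50 to 4.23 in KO and from 3.05 to 3.81 in WT cells. At 6 h every stimulated value was below every vehicle value, and at 24 h the groups overlapped. CTH rose from 6 to 24 h by 4.31 ± 0.56 (adjusted p = 2.63e-06) in KO and 3.29 ± 0.56 (adjusted p = 1.00e-04) in WT cells, and with values this low the size depends on the unstated offset under the logarithm. Its fall against vehicle at 6 h in KO cells (-1.95 ± 0.56) lost its call with a pseudocount of 5 (-0.79, adjusted p = 0.153). CBS, which makes cystathionine and so feeds CTH, rose by 3.32 ± 0.41 (adjusted p = 1.36e-06) in KO and 2.22 ± 0.41 (adjusted p = 2.68e-04) in WT cells. At 6 h it had differed from vehicle by -1.57 in KO and -1.45 in WT cells, both called. GPT2, the mitochondrial alanine transaminase, was not called over this interval in KO (0.98 ± 0.51, adjusted p = 0.15) or WT cells (1.36 ± 0.51, adjusted p = 0.0523). It was called in WT cells with the replicate number as a block (adjusted p = 0.00579) and without library 3 at 24 h (2.03) or at 6 h (1.64).

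Of the 4 genes of the ER arm, 1 rose and 1 fell between 6 and 24 h in KO cells, and none rose and 1 fell in WT cells. In KO cells the count of rises was 0 without library 2 at 6 h and 2 without library 3 at 6 h, and in WT cells 2 fell without library 1 or 2 at 24 h. XBP1 is the factor whose mRNA is spliced on ER stress, which a sum over the gene does not show. XBP1 read 8.64, 8.51 and 9.12 (6 h), 6.34, 7.34 and 7.15 (12 h), and 7.09, 7.77 and 7.32 (24 h) in stimulated KO cells. WT libraries gave 9.19, 9.19 and 9.39 (6 h), 6.99, 8.18 and 7.38 (12 h), and 7.14, 8.25 and 6.33 (24 h). Vehicle values of XBP1 ran from 6.57 to 7.76 in KO and from 7.05 to 8.05 in WT cells. XBP1 was above all vehicle values at 6 h in both genotypes and around them at 12 h. It exceeded vehicle at 6 h by 1.32 ± 0.35 (adjusted p = 0.00381) in KO and 1.44 ± 0.35 (adjusted p = 0.00199) in WT cells and differed between 24 and 6 h by -1.36 ± 0.35 (adjusted p = 0.00521) in KO and -2.02 ± 0.35 (adjusted p = 1.40e-04) in WT cells. HSPA5, or BiP, is the main ER chaperone. HSPA5 read 12.48, 11.07 and 12.88 (6 h), 12.63, 12.87 and 13.07 (12 h), and 13.13, 12.17 and 13.62 (24 h) in stimulated KO cells. WT libraries gave 13.32, 13.30 and 12.84 (6 h), 12.78, 12.74 and 12.62 (12 h), and 12.58, 12.61 and 11.34 (24 h). Vehicle values of HSPA5 ran from 12.45 to 13.23 in KO and from 12.92 to 13.76 in WT cells. In KO cells the lowest 6 h value came from the library that stood apart and the times overlapped. In WT cells the 24 h values lay below the 6 h values, and the lowest belonged to the other such library. HSPA5 differed between 24 and 6 h by 0.83 ± 0.36 (adjusted p = 0.0879) in KO cells and by -0.98 ± 0.36 (adjusted p = 0.0516) in WT cells, of opposite sign and not called. With the replicate number as a block the WT difference was called (adjusted p = 0.0324), as it was without library 1 (-1.18) or 2 (-1.19) at 24 h, and the KO difference was called without library 2 at 24 h (1.23) or library 3 at 6 h (1.20). In WT cells at 24 h HSPA5 was lower than vehicle (-1.10 ± 0.36, adjusted p = 0.0144), a call lost without stimulated library 3 (-0.68) or vehicle library 1 (-0.91). ATF6, the ER membrane factor, rose in KO cells (0.89 ± 0.26, adjusted p = 0.0122) and was not called in WT cells (-0.07 ± 0.26), and the KO call was lost without library 2 at 6 h (0.72) or at 24 h (0.79). HERPUD1, of ER-associated degradation, was not called over this interval (0.51 ± 0.34 in KO and 0.29 ± 0.34 in WT cells). Against vehicle at 24 h it was higher in KO cells (1.22 ± 0.34, adjusted p = 0.00541) and not called in WT cells (-0.28 ± 0.34).

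The 8 tRNA synthetases all rose between 6 and 24 h in KO cells, and 6 of them did in WT cells. The fit of only the groups compared called 2 in WT cells, where GARS1, SARS1, TARS1 and YARS1 lost their calls. In KO cells SARS1 and EPRS1 lost theirs in that fit. AARS1, for alanine, had the largest rise of the 8. AARS1 read 5.70, 6.36 and 6.13 (6 h), 6.58, 6.72 and 6.74 (12 h), and 9.65, 10.54 and 9.09 (24 h) in stimulated KO cells. WT libraries gave 6.41, 6.98 and 6.56 (6 h), 6.18, 7.67 and 6.31 (12 h), and 9.46, 10.19 and 8.16 (24 h). Vehicle values of AARS1 ran from 7.94 to 8.49 in KO and from 8.35 to 9.27 in WT cells. At 6 h AARS1 lay below all vehicle values in both genotypes, and at 24 h above them in KO cells, with overlap in WT cells, where library 3 was the lowest. It differed from vehicle by -2.30 ± 0.38 (adjusted p = 1.83e-05) at 6 h and 1.63 ± 0.38 (adjusted p = 0.00105) at 24 h in KO cells, and by -2.24 ± 0.38 (adjusted p = 2.91e-05) at 6 h and 0.49 ± 0.38 (adjusted p = 0.299) at 24 h in WT cells. Without library 3 of the stimulated WT cells the WT difference at 24 h was called (1.05). From 6 to 24 h AARS1 rose by 3.70 ± 0.38 (adjusted p = 7.72e-08) in KO and 2.62 ± 0.38 (adjusted p = 1.32e-05) in WT cells.

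GARS1, for glycine, read 7.68, 7.30 and 7.78 (6 h), 8.13, 8.28 and 8.11 (12 h), and 10.36, 11.07 and 9.72 (24 h) in stimulated KO cells. WT libraries gave 8.37, 8.53 and 8.13 (6 h), 7.91, 8.72 and 7.96 (12 h), and 10.06, 10.72 and 9.08 (24 h). Vehicle values of GARS1 ran from 8.40 to 8.72 in KO and from 8.53 to 9.02 in WT cells. All 24 h values in stimulated cells lay above all vehicle values. GARS1 rose from 6 to 24 h by 2.80 ± 0.29 (adjusted p = 1.06e-07) in KO and 1.61 ± 0.29 (adjusted p = 2.23e-04) in WT cells, and exceeded vehicle at 24 h by 1.79 ± 0.29 (adjusted p = 1.71e-05) and 1.08 ± 0.29 (adjusted p = 0.00354). The WT call against vehicle was lost without stimulated library 2 (0.69).

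YARS1, for tyrosine, rose from 6 to 24 h by 2.28 ± 0.32 (adjusted p = 9.77e-06) in KO and 1.35 ± 0.32 (adjusted p = 0.00308) in WT cells, and MARS1, for methionine, by 1.60 ± 0.27 (adjusted p = 1.09e-04) and 1.40 ± 0.27 (adjusted p = 4.82e-04). TARS1, for threonine, rose by 1.73 ± 0.26 (adjusted p = 2.58e-05) in KO and 0.91 ± 0.26 (adjusted p = 0.0131) in WT cells, and SARS1, for serine, by 1.07 ± 0.30 (adjusted p = 0.0078) and 0.92 ± 0.30 (adjusted p = 0.0239). SARS1 lost its call without library 2 at 24 h, in KO (0.74) and in WT cells (0.49), and in WT cells also without library 1 (0.85) or 3 (0.79) at 6 h. TARS1 in WT cells lost its call without library 2 at 24 h (0.64) or library 3 at 6 h (0.78). NARS1, for asparagine, and EPRS1, which serves both glutamate and proline, rose in KO cells (1.88 ± 0.27, adjusted p = 1.43e-05 and 1.68 ± 0.39, adjusted p = 0.00239). In WT cells NARS1 (0.74 ± 0.27, adjusted p = 0.0502) and EPRS1 (0.94 ± 0.39, adjusted p = 0.086) were not called. Both were called there with the replicate number as a block (adjusted p = 0.0154 and 0.0377) and without library 3 at 24 h (1.05 and 1.37). NARS1 differed from vehicle at 6 h by -1.41 in KO and -1.61 in WT cells, both called, and at 24 h it was near vehicle in KO cells (0.09 ± 0.27) and lower in WT cells (-0.95 ± 0.27, adjusted p = 0.00553). The WT call at 24 h was lost without stimulated library 3 (-0.65).

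Other genes of tRNA charging were counted from lists. Of 15 other genes of the cytosolic synthetases and their scaffold, 3 rose and 1 fell between 6 and 24 h in stimulated KO cells, with a median difference of -0.04, where 14.5% of all genes rose and 13.0% fell. In WT cells 1 rose and 5 fell, with a median of -0.46 (10.8% and 12.0% of all genes). The KO counts and the WT rise were thus close to those of all genes. IARS1 (isoleucine) rose by 2.44 ± 0.63 (adjusted p = 0.00501) and CARS1 (cysteine) by 1.66 ± 0.27 (adjusted p = 5.96e-05) in KO cells, where VARS1 (valine) fell (-1.27 ± 0.46, adjusted p = 0.0401). In WT cells CARS1 rose by 1.98 ± 0.27 (adjusted p = 5.97e-06), and VARS1 (-2.59) and FARSB, a phenylalanine subunit (-2.15), fell. Of 17 mitochondrial synthetases none was called in KO cells by limma (2 had an unadjusted p below 0.05, median 0.13), and none rose and 5 fell in WT cells (median -0.55), among them EARS2 (-1.45), WARS2 (-1.37) and YARS2 (-0.96). The medians of the 8 listed synthetases were 1.80 in KO and 1.14 in WT cells. The 8 and the other lists were chosen with earlier results of these data known, so their medians are no test of a difference between the lists.

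**Figure D4:**
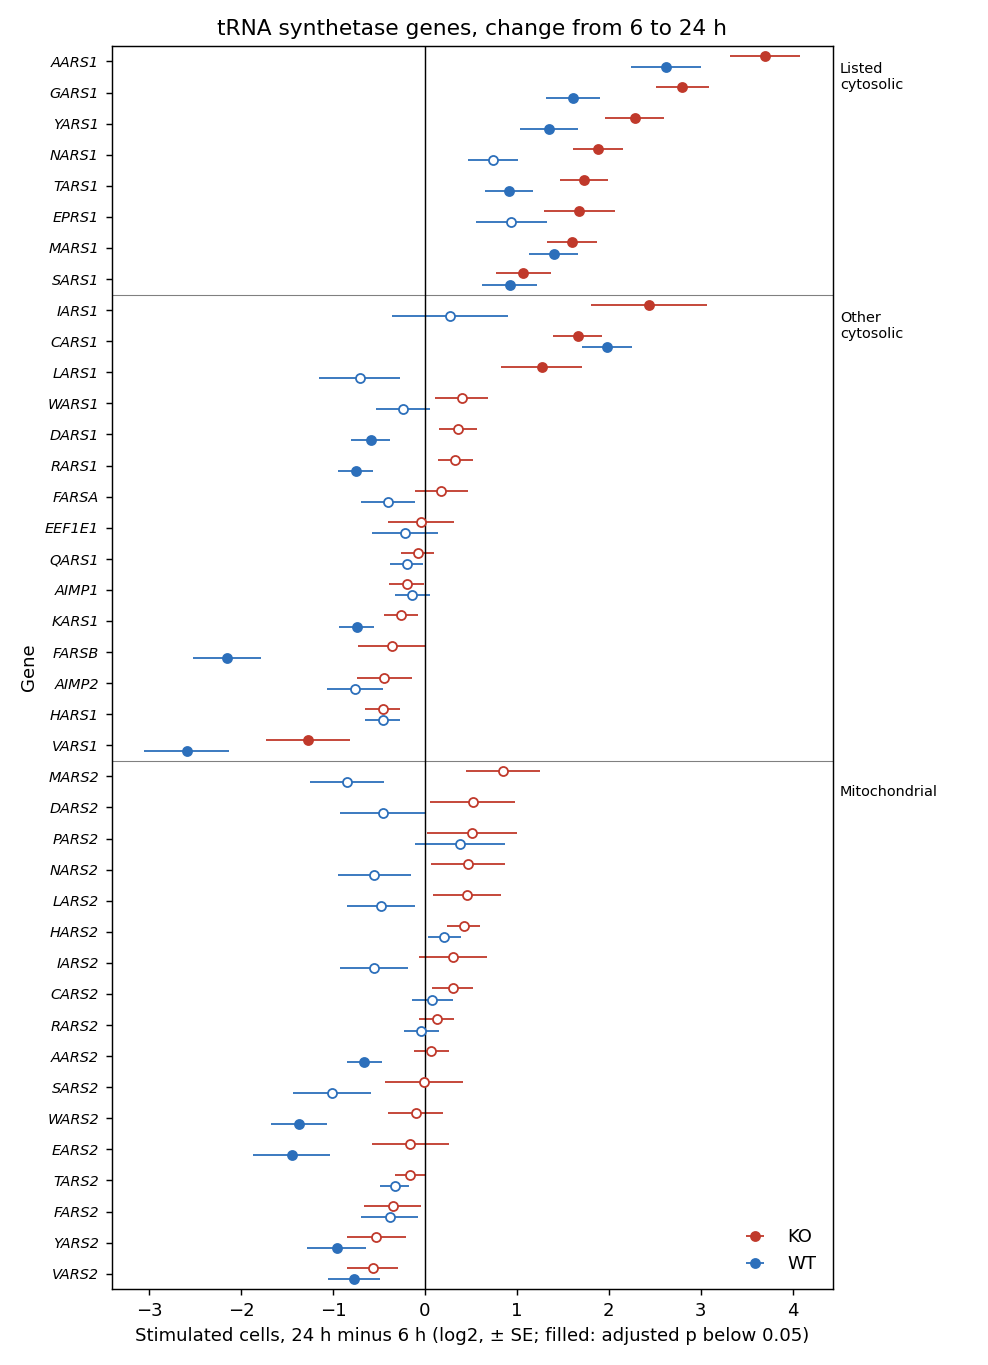
Log2 difference between 24 and 6 h in stimulated cells (points, with SE as bars) for the 8 listed cytosolic synthetases, 15 other cytosolic synthetase and scaffold genes and 17 mitochondrial synthetases, KO above WT in each row; filled points have an adjusted p below 0.05. All 8 listed genes lie right of 0 in both genotypes, and the mitochondrial genes have no filled point right of 0. The lists were chosen with earlier results of these data known.

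Further genes of the pathways were counted in the same way. The shares of all genes are those just given. Of 30 further genes of the integrated stress response in the table, 14 rose and 1 fell between 6 and 24 h in stimulated KO cells (median 0.91), and 11 rose and 2 fell in WT cells (median 0.37). The serine synthesis enzyme PSAT1 rose by 7.38 ± 0.66 (adjusted p = 9.38e-09) in KO and 3.46 ± 0.66 (adjusted p = 0.000335) in WT cells. The secreted peptide ADM2 rose by 4.62 ± 0.60 (adjusted p = 2.73e-06) and 3.97 ± 0.60 (adjusted p = 2.46e-05). ALDH1L2, of mitochondrial folate metabolism, rose by 4.37 ± 0.59 (adjusted p = 5.2e-06) in KO cells, and SLC6A9, a glycine carrier, by 3.11 ± 0.60 (adjusted p = 0.000372) in WT cells. Of 25 further genes of the ER unfolded protein response, 3 rose and 3 fell in KO cells (median 0.05), and 2 rose and 9 fell in WT cells (median -0.69). The KO counts and the WT rises of this list were near the shares of all genes (14.5% and 13.0% in KO cells, 10.8% up in WT cells), and the WT falls were above theirs (12.0%). ERN1, the kinase and nuclease that splices XBP1 mRNA, rose in KO cells (2.26 ± 0.73, adjusted p = 0.0213), as did CREBRF (1.70), while DERL3, of ER-associated degradation, fell (-1.66). In WT cells the secreted ER protein MANF (-2.07), the translocon subunit SEC61B (-1.72) and the cochaperone DNAJB9 (-1.65) fell.

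Differences between KO and WT cells were next tested directly at each time. In stimulated cells none of the 37 was called at 6 h (8.71% of all genes called in either direction; 11 of the 37 had an unadjusted p below 0.05) or at 12 h (3.45%; 11 of the 37), and 1 was called at 24 h (5.87%; 7 of the 37). In vehicle cells 1 was called at 6 h (8.19%; 5 with an unadjusted p below 0.05), and none at 12 h (5.24%; 3) or at 24 h (3.98%; 9). The responses of KO and WT cells differed for none of the 37 at 6 h (0.452% of all genes; 2 with an unadjusted p below 0.05), 12 h (0.16%; 2) or 24 h (0.433%; 7), and neither did the growth of the response from 6 to 24 h (0.00942%; 1). All these counts are from limma, and a missed threshold does not show that the genotypes were alike. With the replicate number as a block, 4 genes were called in stimulated cells at 12 h (NUPR1, CBS, SLC1A5 and EIF2AK4), 5 at 24 h (NUPR1, SLC1A5, ATF6, NARS1 and EIF2AK4) and 3 in vehicle cells at 24 h (ATF5, DDIT3 and STC2). Single libraries moved the counts of 0 to 1. In stimulated cells HSPA5 was called at 6 h without library 3 of the KO cells (-1.38), and at 12 h 3 were without library 2 of the WT cells and 2 without library 2 of the KO cells. In vehicle cells at 6 h the count was 2 without library 2 and 0 without library 3 of the KO cells, and at 24 h it was 2 without library 2 of the WT cells and 1 without library 2 of the KO cells. The response of HERPUD1 at 24 h differed between KO and WT cells by 1.49 ± 0.48 (adjusted p = 0.167), and it was the 1 gene called without library 2 of the stimulated WT cells (adjusted p = 0.0481).

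Markers of macrophages differed between the genotypes. In stimulated cells 3, 2 and 2 of the 10 were lower in KO than in WT cells at 6, 12 and 24 h, and in vehicle cells 4 were at each time, with none higher. The log2 of their summed level ran from 12.62 to 13.59 in the stimulated KO libraries, against 13.49 to 14.45 in the stimulated WT libraries, and from 12.85 to 13.68 in the KO vehicle libraries, against 13.96 to 15.29 in the WT vehicle libraries. LYZ, the lysozyme gene, was lower at every time in both states, for example 7.91, 7.71 and 7.67 in KO and 11.52, 10.85 and 10.84 in WT vehicle cells at 6 h. CD68 was lower too, except in stimulated cells at 24 h, where it was not called. Of the 7 markers of other cell types, COL1A1 was lower in stimulated KO cells at each time (-3.23, -2.93 and -2.46), and KRT18 was higher in KO vehicle cells at 6 and 12 h. Their summed level ran from 7.22 to 8.40 in the stimulated KO libraries, against 8.19 to 9.72 in the stimulated WT libraries, and from 7.79 to 8.51 in the KO vehicle libraries, against 8.25 to 9.72 in the WT vehicle libraries. The part of these differences in the results for the 37 genes was not tested.

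The gene called in stimulated cells at 24 h was EIF2AK4, at 7.66, 7.20 and 7.66 in KO and 6.85, 6.80 and 6.97 in WT cells, with no overlap (0.63 ± 0.19, adjusted p = 0.0487). Its call was lost without library 1 (0.56) or 3 (0.55) of the KO cells or library 1 (0.62), 2 (0.59) or 3 (0.68) of the WT cells. In vehicle cells EIF2AK4 differed between KO and WT cells by 0.40, 0.32 and 0.34 at 6, 12 and 24 h, none called. Its response at 24 h differed by 0.29 ± 0.27, not called. NUPR1 was lower in stimulated KO than WT cells by a larger amount that was not called, at -2.73 ± 0.88 (adjusted p = 0.0819) at 12 h and -2.63 ± 0.88 (adjusted p = 0.0698) at 24 h. It was called with the block at both times (adjusted p = 0.0469 and 0.0409), and without library 2 of the WT cells at 12 h (-3.46) and at 24 h (-3.34) or of the KO cells at 12 h (-3.44). In vehicle cells NUPR1 differed between KO and WT cells by -1.72, -2.07 and -2.03 at 6, 12 and 24 h, none called. Its response at 24 h differed by -0.60 ± 1.24, not called. SLC1A5 was higher in stimulated KO than WT cells by 1.26 ± 0.46 (adjusted p = 0.135) at 12 h and 1.11 ± 0.46 (adjusted p = 0.153) at 24 h, called with the block (adjusted p = 0.0226 and 0.0331) and without library 2 of the WT cells (1.80 and 1.78). The count at 24 h was 7 without library 2 and 0 without library 1 or 3 of the stimulated WT cells, and 3 without library 2 and 0 without library 1 or 3 of the stimulated KO cells. The gene called in vehicle cells was CEBPG at 6 h, at 5.49, 6.09 and 5.29 in KO and 6.93, 6.69 and 6.96 in WT cells, with no overlap (-1.24 ± 0.30, adjusted p = 0.00902), a call lost without KO library 3 (-1.07). STC2 in vehicle cells at 24 h was lower in KO than WT cells (-2.15 ± 0.64, adjusted p = 0.0555), not called, and called with the block (adjusted p = 0.0252). It was also called without library 2 of the WT (-2.69) or of the KO cells (-2.59).

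The stimulated libraries at 24 h were ordered alike across most of the genes. Library 2 held the highest value for 31 of the 37 genes in KO cells and for 30 in WT cells, where it did so for 34.1% and 34.9% of all genes tested. Library 3 held the lowest value for 27 genes in KO and 32 in WT cells, against 30.0% and 43.8% of all genes. ATF5 and ATF3 were among the exceptions, with the lowest KO value in library 2 for both. SESN2, at 8.98, 10.45 and 7.98 in KO and 9.26, 10.63 and 7.56 in WT cells, shows the usual order and its size. What set the libraries apart was not tested.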

How the data were processed

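RNA was extracted with a Qiagen RNeasy kit and libraries were made with Roche KAPA HyperPrep reagents with RiboErase, per the labels' protocols. Reads were trimmed with cutadapt 1.9.1 and aligned with GSNAP to GRCh37.p5, per the submitters' processing notes. The counting tool, annotation, normalization and offset are not given in the sources used here. The authors deposited 1 table of log2 values, 21599 rows by 36 libraries, with library medians between 5.4691 and 5.4753 and values from -0.34 to 16.748; it holds no counts, so the depth and counting error of each library are unknown. Symbols came from the supplied gene table by Entrez identifier (20609 rows matched).

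Rows at or above 3.32 (log2 of 10) in at least 3 libraries were kept (21232). Group means were fitted with limma 3.58.1 (R 4.3.3, mean-variance trend, 24 residual degrees of freedom), and p-values were Benjamini-Hochberg adjusted over all genes within each of 22 comparisons, with calls at 0.05. No correction was made across comparisons. The code was tested on simulated data. Comparisons of KO and WT cells share their libraries with the responses, and so do responses of 1 genotype at different times.

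Same-numbered replicates deviated together (every pair of libraries above 0.1) in these comparisons: the KO responses at 6 and 12 h, all 3 WT responses, vehicle 24 against 6 h in both genotypes, WT stimulated 24 against 6 h and its response counterpart, and KO against WT in stimulated and in vehicle cells at 12 and 24 h. This comes from the data, since the labels do not say what a number shares. Beside those results the fit with the replicate number as a block is given where it changed a call that is printed for a single gene or moved a count by over 1.5 times.

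Per-library values are given for ATF4, ATF3, DDIT3, TRIB3, ASNS and the 2 genes with the largest changes in each role. From the other lists up to 3 called genes with the largest change were named. All 37 genes were named; single-time values of NUPR1, EIF2AK3, SESN2 and CEBPG, and the genes singled out between KO and WT cells, were picked after their values were seen. The members and lists were chosen with earlier results of these data known. Promoters were RefSeq sequences of GRCh38.p14, the first listed for each gene, matched by Entrez identifier, and no coordinate of the expression table was used. Alternatives were another filter, scaling, pseudocount, threshold, trend and block setting, fits of the compared groups only, and each library left out.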

Additional observations from a re-analysis of the deposited data

How the results depend on the processing

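No called value of the 37 genes changed sign under any alternative. A stricter filter on low values left 162 of the called values to test, and all 162 kept their call. All 188 called values kept their call without the filter, after quantile or median centring and with the block, 187 with a pseudocount of 5 (CTH lost its call in the KO response at 6 h, at -0.79), 183 without the trend and 144 at an adjusted p of 0.01; 181 did without the 2 libraries that stood apart, an alternative chosen after seeing the data. Limiting the fit to the groups compared kept 140, and the counts of genes called were then 17 for the KO response at 12 h, 15 for the WT response at 24 h, 17 (KO) and 15 (WT) for stimulated 24 against 6 h, 0 for KO vehicle 24 against 6 h, 12 (KO) and 10 (WT) for the response at 24 against 6 h, 0 for KO against WT stimulated and 1 for vehicle at 24 h. At 0.01 the response at 24 against 6 h gave 12 (KO) and 8 (WT), and KO against WT stimulated at 24 h gave 0, as it did without the trend. The cause of these changes was not tested, and the shares of all genes called in these fits are not given here.

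The replicate block added 46 calls and ended none. With it, KO against WT gave 4, 4 and 5 genes in stimulated cells at 6, 12 and 24 h, 3 at 6 h and 3 at 24 h in vehicle cells and 1 in the response at 6 h, and KO vehicle 24 against 6 h gave 2; elsewhere the block moved no count by more than 1.5 times. Without the 2 libraries that stood apart, KO against WT gave 1, 2 and 0 genes in stimulated cells at 6, 12 and 24 h and 2 and 1 in vehicle cells at 6 and 24 h.

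Leaving out 1 library at a time, KO against WT called 0 to 1, 0 to 3 and 0 to 7 genes in stimulated cells at 6, 12 and 24 h, 0 to 2 in vehicle cells at 6 h and at 24 h, and 0 to 1 in the response at 24 h. KO vehicle 24 against 6 h ranged from 0 to 2 and the KO response at 24 h from 17 to 28. Over these fits, 1181 of 1344 recomputed calls were kept. With 3 libraries a group and depth unknown, a difference that was not called is not shown to be absent.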
